A study of Mus musculus with 16 samples.

Results

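Gene expression was compared between the ventricles of mice lacking CHIP (CHIP-/-) and of wild-type mice, both sampled 1 week after trans-aortic banding (TAB), an operation that narrows the aorta and makes the heart pump against a raised pressure. The comparison used the 4 arrays titled as CHIP-/- TAB hearts and the 4 titled as wild-type TAB hearts, which are 8 of the 16 arrays of the series. The other 8 arrays were 4 CHIP-/- and 4 wild-type ventricles taken 1 week after sham surgery, and they are used here for the spread between arrays and for a side comparison of the genotypes. All 16 hearts came from 129Sv mice, and the labels call the 4 arrays of a group biological replicates. How the CHIP allele was made, and the age and sex of the animals, are not given in the sources used here. Each array carried 2 labelled RNAs: heart RNA in the red dye (Cy5) and, in the green dye (Cy3), a common reference of whole newborn mice of mixed 129Sv and C57BL/6 strain. The measure was the log2 ratio of heart over reference, so a difference of 1 between 2 groups is a 2-fold difference in the measured ratio, and the reference cancels. For genes near background, such as Plac8, Sfrp2 and Ms4a7, differences grew with the scanner software's processed signals. Folds given for such genes are therefore those of the measured ratio and may understate the difference in heart RNA.

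CHIP, encoded by Stub1, is a ubiquitin ligase that binds the chaperones Hsc70 and Hsp90 and marks their unfolded clients for the proteasome. It is abundant in heart and skeletal muscle, and it has also been described as a partner of AMPK, the kinase that senses a shortage of ATP. Under pressure load the ventricle grows, re-expresses fetal genes such as the natriuretic peptides, lays down collagen and draws less of its energy from fatty acids.

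After filtering, 11058 features (genes, or probes without a gene symbol) were tested in a limma model of the 4 group means on all 16 arrays, and a gene is said to be higher or lower in CHIP-/- TAB ventricle where its Benjamini-Hochberg adjusted p was under 0.05. Of these features, 1275 passed (11.5%): 580 were higher (5.25%) and 695 lower (6.29%) in CHIP-/- TAB than in wild-type TAB ventricle. Of these, 19 of the higher and 7 of the lower features differed by 2-fold or more in the measured ratio. The 4 values of one group did not overlap those of the other for 1437 features (13.0%), 693 with CHIP-/- above (6.27%) and 744 below (6.73%). Between 27% and 35.2% of spots were well above background in the heart channel of the wild-type TAB arrays and between 29.2% and 33.2% in that of the CHIP-/- TAB arrays. The 27% was that of wild-type TAB replicate 1, and the others of its group stood at 31.7% or more. Values correlated at 0.915 to 0.962 between arrays of different genotype and at 0.958 to 0.973 within the wild-type TAB group and 0.96 to 0.97 within the CHIP-/- TAB group. No slide held arrays of more than 1 group: a slide effect and a group effect cannot be told apart. The count fell to 807 without CHIP-/- TAB replicate 3, and to 439 (245 higher and 194 lower, or 55.8% higher against 45.5%) when each array was centred on its median in place of loess, the intensity-dependent correction used throughout. Fitted on the 8 TAB arrays alone, without the sham arrays, the count was 888 (425 higher and 463 lower).

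Stub1 itself separated the genotypes on every array. Its log2 ratio on wild-type TAB replicates 1 to 4 was 0.25, 0.06, -0.41 and 0.14. On CHIP-/- TAB replicates 1 to 4 it was -1.47, -1.17, -1.36 and -1.29. The groups did not overlap, and the difference of -1.33 (SE 0.10, adjusted p = 2.9e-08, limma) is a 2.52-fold lower signal. The probe remained well above background in all 4 CHIP-/- TAB hearts, and whether it lies inside the deleted stretch was not analysed here. After sham surgery Stub1 lay between 0.30 and 0.43 in wild type and between -1.39 and -1.24 in CHIP-/-.

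The matrix genes Postn and Col3a1 were among the genes furthest above wild type in CHIP-/- TAB ventricle, and Pdk4, Ppargc1a and Rpl3l among those furthest below. Of the higher genes, Serpinb1a, a protease inhibitor, led with a difference of 2.51 (5.71-fold), though the mouse genome carries near-identical Serpinb1 copies and its probe may read more than one. It was followed by Postn (periostin, a matrix protein of activated fibroblasts) at 1.73, Spp1 (osteopontin) at 1.65, Col3a1 (type III collagen) at 1.37, Myl9 (a smooth muscle myosin light chain) at 1.36 and Cnn1 (calponin) at 1.32. Another copy, Serpinb1c, stood at 1.32 (2.69 with the scanner software's processed signals, and well above background on 2 of the 4 wild-type TAB arrays), and Clu (clusterin, a secreted chaperone), Timp1 (an inhibitor of matrix metalloproteinases), Ltbp2, Sfrp2, Ccn4, Ctss and Ms4a7 at 1.15 to 1.24. Of the lower genes, Pdk4, the kinase that shuts off pyruvate dehydrogenase when fat is burned, had the largest fall at -1.63, ahead of Stub1. Next came Depp1 at -1.20, Timp4 (a metalloproteinase inhibitor made mainly in heart) at -1.15, Yipf7 and Sult1a1 at -1.03, Myot (myotilin of the Z-disc) at -1.01, Tacc2 and the muscle ribosomal protein gene Rpl3l at -0.98, Tuba8 at -0.95 and Ppargc1a (PGC-1 alpha, the coactivator of mitochondrial genes) at -0.94. Lrtm1 stood at -0.91, Hadh (a beta-oxidation enzyme) at -0.87, and Zfp975 and Hrc (which binds calcium in the sarcoplasmic reticulum) at -0.82. Of 2 further Tacc2 probes, 1 differed by -0.59 and 1 by -0.21, and a second Yipf7 probe differed by -0.52. These 30 genes were named by size among those whose groups did not overlap, so the absence of overlap in them is part of the choice.

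**Figure D1:**
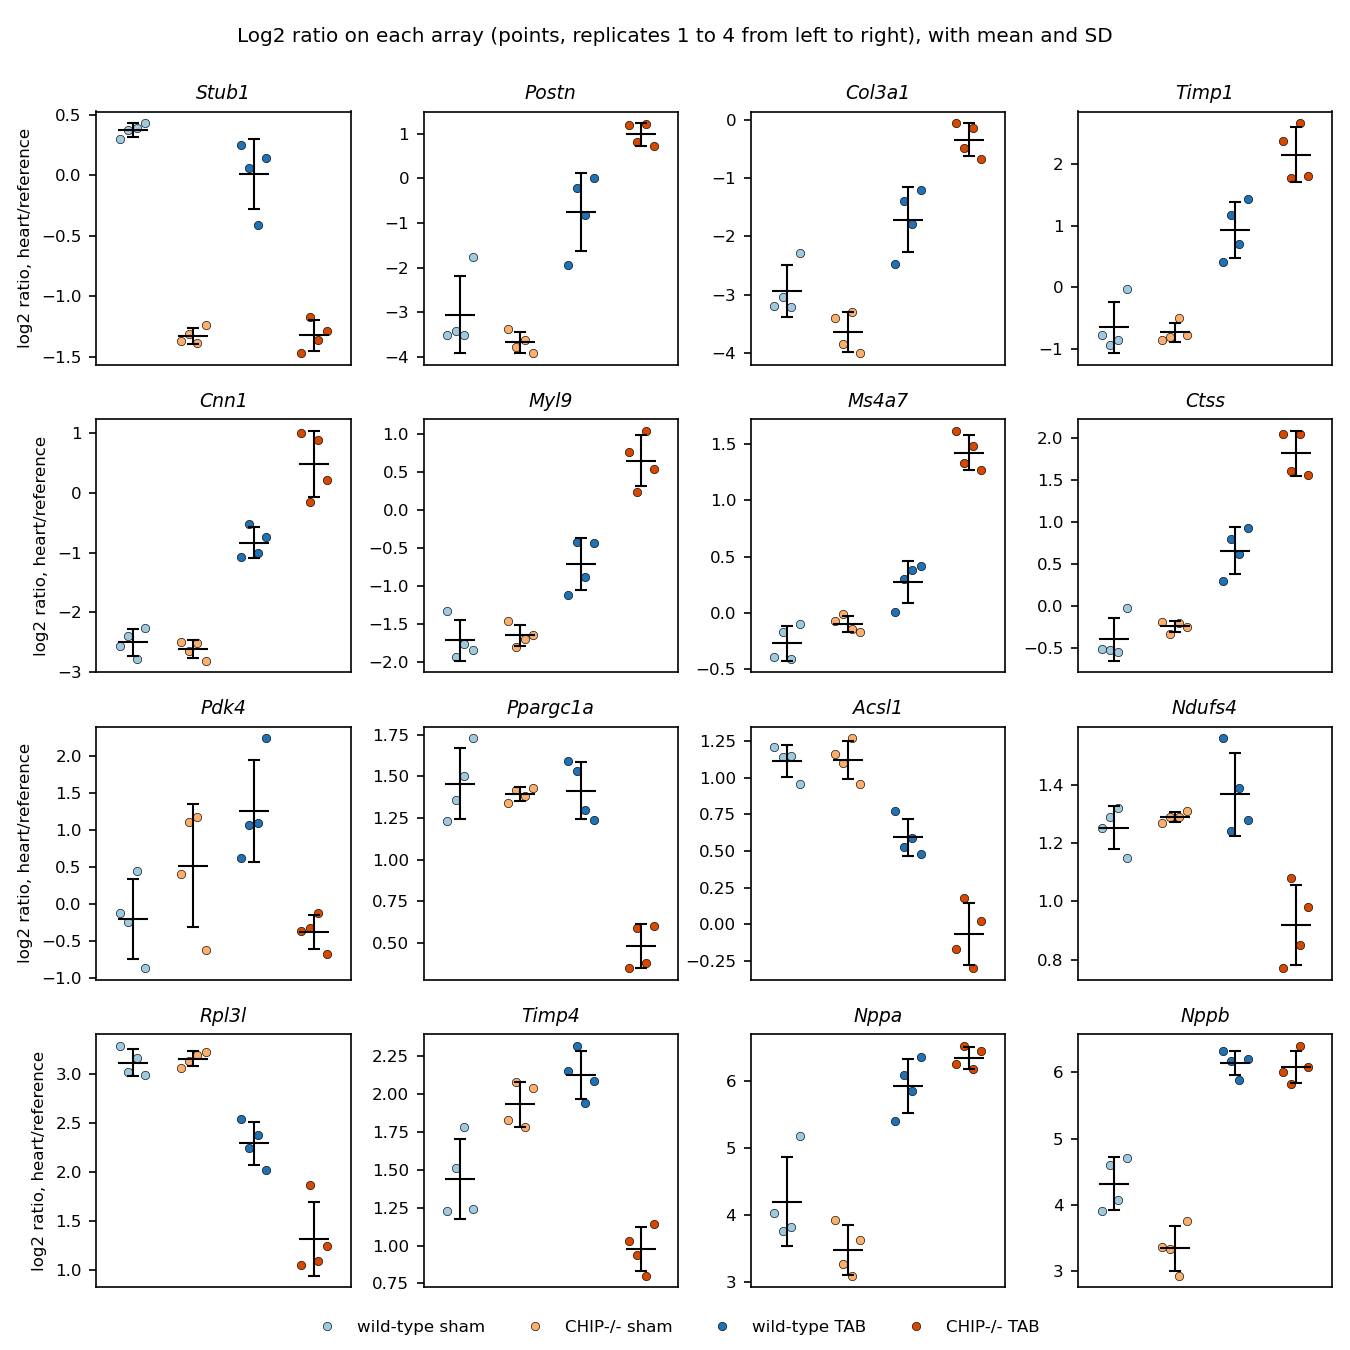
Log2 ratio of heart over reference on each of the 16 arrays for 16 genes, by group, with points for replicates 1 to 4 and a bar for the mean with its SD (n = 4). Postn lies between -1.95 and 0.00 on the wild-type TAB arrays and between 0.72 and 1.22 on the CHIP-/- TAB arrays, whereas the TAB groups overlap for Nppa and Nppb.

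Matrix genes were prominent among those that were higher. Of 23 measured genes of fibrillar collagens and their processing, 16 were higher and 0 lower, with a median difference of 0.37 against -0.01 over all features. Col3a1 measured -2.47, -1.39, -1.79 and -1.20 on wild-type TAB replicates 1 to 4. It measured -0.06, -0.49, -0.15 and -0.67 on CHIP-/- TAB replicates 1 to 4, a 2.58-fold difference (1.37, SE 0.22, adjusted p = 0.00031, limma). Where a list is given with 0 members in a direction, at most 1 passed that way at an unadjusted p under 0.05 in limma, apart from the autophagy and lysosome list, where 4 were lower. For Col3a1 every CHIP-/- TAB array lay above every wild-type TAB array, and wild-type replicate 1 was the lowest of the 8. Col1a1 averaged -2.82 ± 0.33 in wild-type TAB and -1.85 ± 0.20 in CHIP-/- TAB (SD, n = 4 each), a 1.95-fold difference, and Col1a2 was 1.76-fold higher. A second Col1a1 probe differed by 0.54 (adjusted p = 0.0014, limma). Lox, which crosslinks collagen, was 0.93 higher, and Serpinh1, the collagen chaperone, 0.37 higher. The collagen prolyl hydroxylase subunits P4ha1 (-0.09) and P4ha2 (0.07) did not pass. The count of 16 was 8 without wild-type TAB replicate 1, 10 without CHIP-/- TAB replicate 1 and 10 without CHIP-/- TAB replicate 3. With median centring it was 10, with a median difference of 0.33.

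Matricellular and elastic matrix genes, whose products tune how cells read the matrix, showed 18 of 33 members higher and 1 lower, with a median difference of 0.51. Postn read -1.95, -0.22, -0.82 and 0.00 on wild-type TAB replicates 1 to 4. It read 1.19, 0.82, 1.22 and 0.72 on CHIP-/- TAB replicates 1 to 4 (difference 1.73, SE 0.34, adjusted p = 0.0013, limma). The wild-type arrays were spread far more widely (SD 0.87) than the CHIP-/- arrays (SD 0.26), and no value overlapped. Spp1 averaged -4.43 ± 0.26 in wild-type TAB and -2.79 ± 0.54 in CHIP-/- TAB (SD, n = 4 each), a 3.13-fold difference. Ccn2 (connective tissue growth factor) was 1.98-fold, Ltbp2 2.34-fold and Ccn4 2.28-fold higher, and fibronectin (Fn1), which is named here after its value was seen, was 0.65 higher. Ltbp4, a latent TGF-beta binding protein, was the member that was lower (-0.30). The differences of Ccn4, Sfrp2 and Lox grew to 1.80, 2.43 and 1.67 with processed signals.

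The enzymes that cut matrix and their inhibitors split. Timp1 measured 0.42, 1.18, 0.70 and 1.43 on wild-type TAB replicates 1 to 4 and 2.38, 1.77, 2.67 and 1.81 on CHIP-/- TAB replicates 1 to 4. Timp4 measured 2.15, 2.32, 1.94 and 2.09 on the wild-type arrays and 1.03, 0.94, 0.80 and 1.14 on the CHIP-/- arrays. Thus the 2 inhibitors moved in opposite directions, Timp1 by 1.23 (SE 0.21, adjusted p = 0.00044, limma) and Timp4 by -1.15 (SE 0.12, adjusted p = 2.3e-06, limma), without overlap in either. Of 2 further Timp1 probes, 1 differed by 0.79 and 1 by 0.69. Timp3 was also lower (-0.49), and the membrane-bound metalloproteinase Mmp14 was 1.70-fold higher. In all, 4 of 16 members were higher and 3 lower, and the 4 became 2 without wild-type TAB replicate 1, CHIP-/- TAB replicate 1 or CHIP-/- TAB replicate 3.

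Among other matrix lists, proteoglycans had 5 of 12 members higher, among them Aspn (asporin, 0.84), Srpx2 (0.59) and Ogn (0.52), and the 5 became 3 without wild-type TAB replicate 1 or CHIP-/- TAB replicate 3. The list of basement membrane and network collagens had 4 of 22 members higher and 0 lower. These 4 were Col8a1, Col8a2 and the fibril-associated collagens Col14a1 (0.92) and Col16a1 (0.62), and no other member passed. Col8a1 passed at 0.89, but its adjusted p was 0.064 (difference 0.62) without wild-type TAB replicate 1 and 0.063 (0.77) without CHIP-/- TAB replicate 3. Of TGF-beta and growth factor signalling genes, 5 of 27 were higher: Fstl1 (0.87), Tgfb2 (0.52), Tgfb3 (0.49), Igf1 (0.44) and Pdgfa (0.31, adjusted p = 0.35 with median centring).

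Markers of the cell types that a piece of ventricle contains moved with these genes. Because whole tissue was measured, fewer or more cells of a type and less or more RNA per cell cannot be told apart. Of 17 measured fibroblast markers, 6 were higher and 0 lower, and all but S100a4 of the 6 also stand in the matrix lists above. The fibroblast identity markers Pdgfra (-0.01), Tcf21 (0.21) and Vim (0.15) did not pass. The mean log2 ratio of the 17 ranged from -0.55 to -0.06 over the wild-type TAB arrays and from 0.06 to 0.32 over the CHIP-/- TAB arrays. The part of cell number in the matrix differences was not tested.

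Macrophage and monocyte markers were higher in CHIP-/- TAB ventricle in 16 of 22 cases and lower in 1, with a median difference of 0.40. Ms4a7, a membrane protein of macrophages, measured 0.01, 0.30, 0.38 and 0.42 on wild-type TAB replicates 1 to 4. It measured 1.62, 1.33, 1.48 and 1.27 on CHIP-/- TAB replicates 1 to 4, so that the highest wild-type array stood well below the lowest CHIP-/- array. Ms4a7 was thus 2.22-fold higher (1.15, SE 0.11, adjusted p = 1.2e-06, limma), or 1.96 on the log2 scale with processed signals, and 3 of the 4 wild-type arrays were well above background. Ctss (cathepsin S) was 2.23-fold, Trem2, a lipid-sensing receptor, 1.72-fold and Plac8 at least 1.78-fold higher, the last as a lower limit because no wild-type TAB array was well above background for it. Among members named after their values were seen, Adgre1, an adhesion receptor, was 0.69, Lyz2 (lysozyme) 0.69 and Csf1r, the receptor that macrophages need to survive, 0.39 higher. Cd163, a scavenger receptor of resident macrophages, was lower (-0.64), and Mrc1 (-0.13) did not pass. The mean of the 22 markers ran from 0.06 to 0.20 over the wild-type TAB arrays and from 0.47 to 0.72 over the CHIP-/- TAB arrays.

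Lysosomal genes moved in the same direction. In the autophagy and lysosome list 9 of 24 members were higher and 0 lower, and those named here were the lysosomal proteases Ctss, Ctsb (0.65) and Ctsd (0.52). Ctsd was even within groups, at 1.56 ± 0.04 in wild-type TAB and 2.09 ± 0.13 in CHIP-/- TAB (SD, n = 4 each; adjusted p = 9.5e-06, limma). A second probe for Ctsb differed by only 0.18. Autophagosome genes such as Becn1 (0.15), Atg5 (0.05) and Map1lc3b (-0.18) did not pass. Ctss is also a macrophage marker, and the part of macrophages in the lysosomal differences was not tested. With median centring 4 members were higher.

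Interferon-induced and antigen-presenting genes were higher in 10 of 29 cases and lower in 1. Ifit3, an antiviral gene induced by interferon, was 1.60-fold and H2-K1, a class I antigen-presenting chain, 1.45-fold higher. Of 2 further H2-K1 probes, 1 differed by 0.38 (adjusted p = 0.043, limma) and 1 by 0.15 (adjusted p = 0.3, limma). The sham differences of Ifit3 and H2-K1 were 0.40 and 0.50. The interaction, the test of whether the genotype difference changed with surgery, did not pass for either gene (adjusted p = 0.47 and 0.94, limma). The interferon-induced membrane gene Ifi27 was 0.30 higher after TAB and 0.67 higher after sham. Ly6a, the member that was lower after TAB (-0.28), was higher after sham (0.41). With median centring 6 members were higher.

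Endothelial markers leaned the other way: 6 of 20 were lower and 0 higher, with a median difference of -0.23. Kdr (VEGF receptor 2) measured 0.96, 1.14, 1.40 and 1.35 on wild-type TAB replicates 1 to 4 and 0.88, 0.56, 0.72 and 0.80 on CHIP-/- TAB replicates 1 to 4, a difference of -0.48 (adjusted p = 0.00089, limma). Robo4, a guidance receptor of vessels, stood at -0.44, and the general endothelial markers Pecam1 (-0.24) and Cdh5 (-0.32) did not pass. Wild-type TAB replicate 1 stood lowest of its group for the list mean (0.80, the others 1.02 to 1.04), and without it 10 of the 20 markers were lower. The pericyte marker Rgs5 was also lower (-0.42). Of the measured markers of lymphocytes (2 of 20), red cells (6), and atrial myocytes (7), none passed in either direction by limma, nor at an unadjusted p under 0.05, while of 5 mesothelial and epicardial markers 3 were higher, among them Krt18 (0.79) and Aldh1a2 (0.78).

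**Figure D2:**
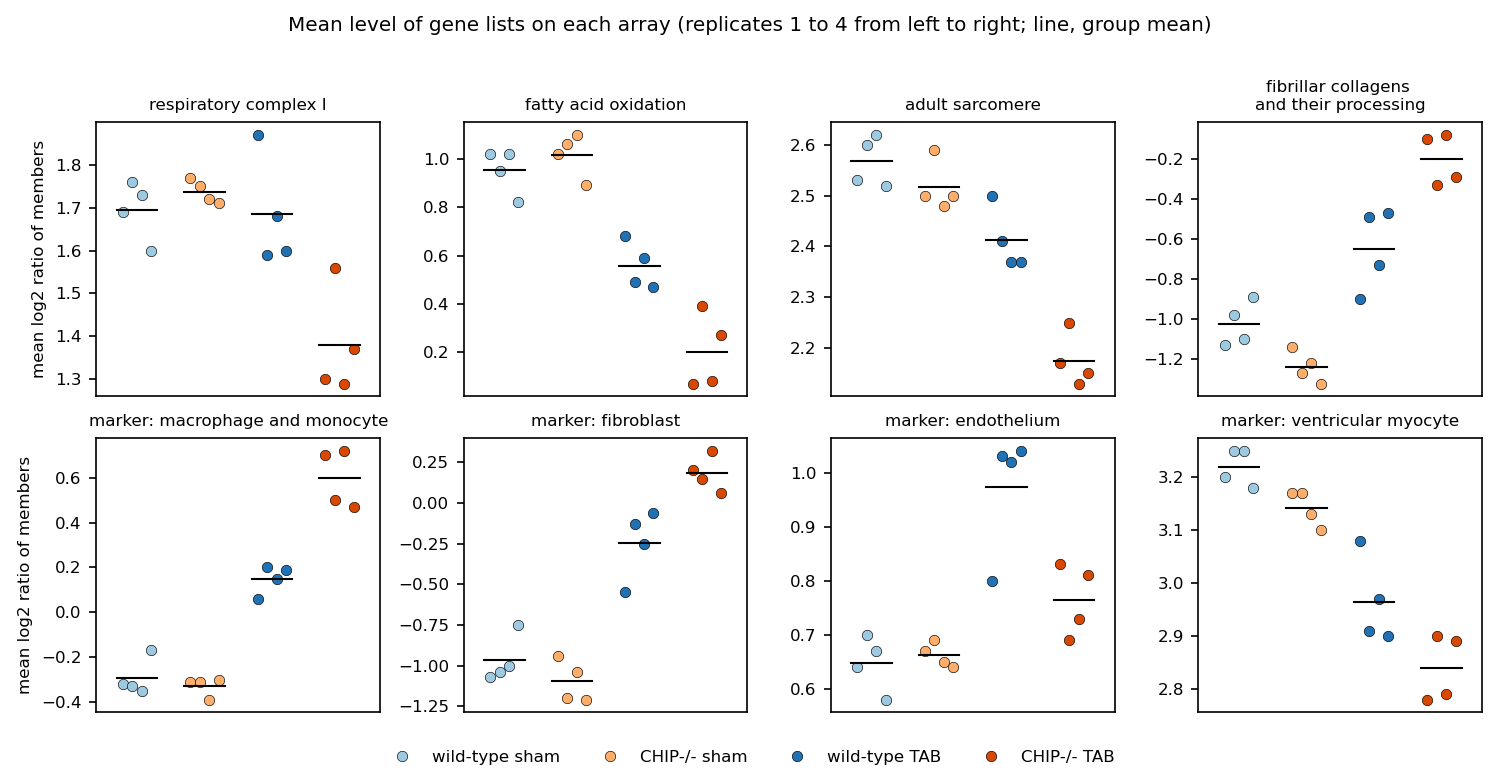
Mean log2 ratio of the measured members of 8 gene lists on each array, by group, with a line at the group mean. The macrophage mean is 0.06 to 0.20 on the wild-type TAB arrays and 0.47 to 0.72 on the CHIP-/- TAB arrays, and the complex I mean is, of the wild-type TAB arrays, highest on replicate 1 (1.87) and, of the CHIP-/- TAB arrays, on replicate 2 (1.56).

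Genes of smooth muscle type split in the same tissue. Myl9 measured -1.12, -0.42, -0.88 and -0.43 on wild-type TAB replicates 1 to 4 and 0.76, 0.24, 1.04 and 0.54 on CHIP-/- TAB replicates 1 to 4 (difference 1.36, SE 0.15, adjusted p = 8.7e-06, limma). Cnn1 ranged from -1.08 to -0.52 in wild-type TAB and from -0.16 to 1.00 in CHIP-/- TAB, a 2.50-fold difference. Des (desmin, the intermediate filament of muscle) averaged 1.13 ± 0.20 and 2.11 ± 0.23 (SD, n = 4 each), a 1.97-fold difference. Des also stands in the intercalated disc and cytoskeleton list, so its rise need not be one of smooth muscle. Myl9, Cnn1 and Des each separated the genotypes on every array, with CHIP-/- TAB replicate 2 the lowest of its group. By contrast Acta2 (-0.03), Myh11 (-0.02) and Tagln (0.11), the usual markers of vessel smooth muscle, did not pass. The smooth muscle and pericyte list as a whole had 2 of 15 members higher, Cnn1 and Des, and 2 lower.

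Adult sarcomere genes were lower in 8 of 17 cases and higher in 1, with a median difference of -0.21. Tnni3 (cardiac troponin I) was 1.52-fold, Myl3 (the ventricular essential light chain) 1.46-fold and Myh6 (alpha-myosin) 1.31-fold lower, each without overlap between the groups. Myh6 measured 4.80, 4.78, 4.62 and 4.62 on wild-type TAB replicates 1 to 4 and 4.26, 4.52, 4.12 and 4.38 on CHIP-/- TAB replicates 1 to 4. Titin (Ttn, -0.23), Actn2 (-0.10) and cardiac actin (Actc1, -0.04) did not pass. Tnnt2 was the member that was higher (0.20), but its second probe differed by -0.38. Ventricular myocyte markers averaged 2.90 to 3.08 on the wild-type TAB arrays and 2.78 to 2.90 on the CHIP-/- TAB arrays, and their part in the sarcomere differences was not tested. With median centring 5 sarcomere genes were lower.

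Calcium handling genes were lower in 7 of 19 cases and higher in 0. Hrc fell furthest, from 1.93 ± 0.19 in wild-type TAB to 1.11 ± 0.30 in CHIP-/- TAB (SD, n = 4 each; 1.76-fold lower). Asph, which encodes junctin among other forms, stood at -0.73, and 2 further probes of that gene differed by -0.33 (adjusted p = 0.011, limma) and 0.17 (adjusted p = 0.47, limma). Atp2a2 (the SERCA2 calcium pump) was 1.28-fold and Pln (phospholamban, its inhibitor) 1.29-fold lower, with overlapping groups. Of 2 further Atp2a2 probes, 1 differed by -0.27 (adjusted p = 0.15, limma) and 1 by -0.11 (adjusted p = 0.52, limma). Without CHIP-/- TAB replicate 1 neither Atp2a2 nor Pln passed (adjusted p = 0.05 and 0.085) and 4 members of the list were lower. With median centring 3 members were lower, and neither Atp2a2 nor Pln passed (adjusted p = 0.1 and 0.15, limma). Pln also lost its call without wild-type TAB replicate 1 (0.079), wild-type TAB replicate 3 (0.066) and CHIP-/- TAB replicate 3 (0.08). The potassium channel gene Kcna5 was 1.69-fold lower, one of 2 of 15 such genes that passed.

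To show the control sequence of a member of each contractile class, 2 light chain promoters that hold a CArG box, the motif bound by serum response factor, are given from RefSeq (GRCm38.p6), 5′ to 3′ on the strand of the gene, with the box in capitals. Myl9 lies on the plus strand (chr2:156775214-156775407, up to the annotated start) with the last base of the box 96 bases before the start, and Myl3 on the plus strand (chr9:110763428-110763677) with that base 76 bases before the start.
Myl9: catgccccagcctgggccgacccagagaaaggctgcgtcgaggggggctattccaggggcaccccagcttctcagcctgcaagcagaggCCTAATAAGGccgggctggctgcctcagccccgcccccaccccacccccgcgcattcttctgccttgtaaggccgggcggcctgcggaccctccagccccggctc
Myl3: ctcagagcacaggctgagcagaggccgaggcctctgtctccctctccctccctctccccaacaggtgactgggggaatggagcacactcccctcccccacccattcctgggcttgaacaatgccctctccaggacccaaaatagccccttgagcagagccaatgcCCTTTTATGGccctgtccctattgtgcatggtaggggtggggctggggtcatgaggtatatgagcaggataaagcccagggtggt
Myl9 was higher (1.36) and Myl3 lower (-0.55), and both windows hold the box. The box was searched on both strands of the 250 bases before each start and lay in 1.47% of all 32851 promoters. Counted by gene, any promoter of 129 of 7980 measured genes (1.62%) held it. So did that of 6 of 409 genes that were higher (1.47%) and 10 of 523 that were lower (1.91%). These matches describe the letters and say nothing of binding.

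The best-known markers of hypertrophy did not pass the test of genotype after TAB. Nppa (atrial natriuretic peptide) measured 5.40, 6.09, 5.85 and 6.35 on wild-type TAB replicates 1 to 4 and 6.24, 6.52, 6.17 and 6.44 on CHIP-/- TAB replicates 1 to 4. The difference of 0.42 (SE 0.23, adjusted p = 0.29, limma) is a lower limit, because the Nppa probe was saturated on 3 of 4 CHIP-/- TAB arrays and 0 wild-type ones. A second probe differed by 0.68 (SE 0.27, adjusted p = 0.13, limma). Nppb (B-type natriuretic peptide) differed by -0.07 (SE 0.16, adjusted p = 0.84), Myh7 (beta-myosin) by 0.32 (SE 0.33, adjusted p = 0.61) and Acta1 (skeletal actin) by -0.24 (SE 0.11, adjusted p = 0.16; all limma). These p-values do not show equal levels. Nmrk2, a kinase of NAD synthesis, averaged 4.54 ± 0.73 and 5.32 ± 0.13 (SD, n = 4 each), without overlap but with an adjusted p of 0.057, and of 0.0015 with median centring. Of the whole list 4 of 24 were higher and 3 lower, among them Ccn2 (0.99), Xirp1 (-0.52) and Csrp3 (-0.39, adjusted p = 0.059 with median centring). The 4 became 2 without wild-type TAB replicate 1, wild-type TAB replicate 3 or CHIP-/- TAB replicate 3.

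Regulators of mitochondrial gene expression were lower in 7 of 24 cases and higher in 0. Ppargc1a measured 1.59, 1.53, 1.30 and 1.24 on wild-type TAB replicates 1 to 4. It measured 0.35, 0.59, 0.38 and 0.60 on CHIP-/- TAB replicates 1 to 4 (difference -0.94, SE 0.09, adjusted p = 2.3e-06, limma). The groups were well apart, at 1.42 ± 0.17 and 0.48 ± 0.14 (SD, n = 4 each), a 1.92-fold difference. Perm1, a muscle gene that acts with PGC-1 alpha, was 1.51-fold lower, although its second probe differed by -0.12, and the nuclear receptor Rxrg was 1.38-fold lower, with the lipin gene Lpin1 at -0.45. Ppara, the fatty acid sensor, was lower at -0.28, with an adjusted p of 0.07 without wild-type TAB replicate 1, 0.069 without CHIP-/- TAB replicate 1 and 0.066 without CHIP-/- TAB replicate 3. The coactivator Ppargc1b (-0.13), Esrrg (-0.17) and Tfam (-0.13), which packages mitochondrial DNA and starts its transcription, did not pass. The list had 4 lower members without CHIP-/- TAB replicate 1 or 3, and 4 with median centring.

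Fatty acid oxidation genes were lower in 17 of 29 cases and higher in 0, with a median difference of -0.31. Pdk4 measured 0.62, 1.07, 1.10 and 2.24 on wild-type TAB replicates 1 to 4. It measured -0.37, -0.33, -0.12 and -0.68 on CHIP-/- TAB replicates 1 to 4, a 3.09-fold difference (-1.63, SE 0.32, adjusted p = 0.0017, limma). Wild-type replicate 4 was the highest of the 8, and even the lowest wild-type array exceeded every CHIP-/- array. Acsl1, which activates long fatty acids, measured 0.77, 0.53, 0.59 and 0.48 in wild-type TAB and -0.17, 0.18, -0.30 and 0.02 in CHIP-/- TAB (1.58-fold lower). Its 2 further probes differed by -0.50 and -0.40. Cpt1b, the gate for fatty acids into heart mitochondria, was 1.41-fold and Acadm, the medium-chain dehydrogenase, 1.33-fold lower, and for Acadm the groups overlapped. The liver-type transferase Cpt1a (0.04) and the carnitine carrier Slc25a20 (0.03) did not pass. Median centring left 11 lower.

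Fatty acid uptake and storage genes were lower in 10 of 22 cases and higher in 0. Plin5 (perilipin 5, which coats lipid droplets at mitochondria) was 1.64-fold lower, Plin4 stood at -0.51, and Acacb (acetyl-CoA carboxylase 2, which makes the malonyl-CoA that inhibits Cpt1b) was 1.37-fold lower. Dgat2 passed at -0.57, with an adjusted p of 0.061 without wild-type TAB replicate 1 or CHIP-/- TAB replicate 1 and 0.066 without CHIP-/- TAB replicate 3. The count of 10 was 6 without CHIP-/- TAB replicate 3 and 6 with median centring.

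The promoters of 2 lower metabolic genes are shown because they hold AAGGTCA, the sequence that oestrogen-related receptors, partners of PGC-1 alpha, are known to bind. They are the 250 bases before the start in RefSeq (GRCm38.p6), 5′ to 3′ on the strand of the gene, and the capitals mark the match, which in both is on the reverse strand. Acadm lies on the minus strand (chr3:153944644-153944893), with the last base of the match 243 bases before the start, and Gstk1, a mitochondrial glutathione transferase, on the plus strand (chr6:42245685-42245934), with that base 135 bases before it.
Acadm: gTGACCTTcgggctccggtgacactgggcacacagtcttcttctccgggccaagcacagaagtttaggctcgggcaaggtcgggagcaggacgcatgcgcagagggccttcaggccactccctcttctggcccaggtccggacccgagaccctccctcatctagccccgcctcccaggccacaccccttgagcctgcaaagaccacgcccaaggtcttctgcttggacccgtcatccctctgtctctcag
Gstk1: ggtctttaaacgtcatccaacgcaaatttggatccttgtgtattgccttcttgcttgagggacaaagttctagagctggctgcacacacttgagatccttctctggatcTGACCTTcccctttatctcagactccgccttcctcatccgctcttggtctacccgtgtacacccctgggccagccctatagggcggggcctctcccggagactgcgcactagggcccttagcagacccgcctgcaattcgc
Gstk1 was 1.52-fold lower (-0.61, adjusted p = 0.0011, limma). The motif was searched on both strands of the 250 bases before each start. Counted by gene, any promoter of 27 of 523 lower genes (5.16%) and of 12 of 409 higher genes (2.93%) held it. The motif lay in a promoter of 274 of 7980 measured genes (3.43%) and in 1340 of all 32851 promoters (4.08%). Its first letters, AAGG, can also end a CArG box. These shares were not tested against each other.

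Respiratory chain genes were lower almost throughout. All 36 measured genes of the complex I list, which holds Ndufa4, had a negative difference, from -0.45 to -0.11, and 31 of them passed. Ndufs4, an accessory subunit of complex I, measured 1.56, 1.24, 1.39 and 1.28 on wild-type TAB replicates 1 to 4 and 0.77, 1.08, 0.85 and 0.98 on CHIP-/- TAB replicates 1 to 4 (difference -0.45, SE 0.07, adjusted p = 0.00022, limma). The lowest wild-type array stood above the highest CHIP-/- array. Of complexes III to V, 27 of 33 were lower and 0 higher, with a median difference of -0.31. The muscle forms of cytochrome oxidase subunits were among them, with Cox7a1 1.49-fold, Cox8b 1.41-fold and Cox6a2 (-0.41) lower, as was the ATP synthase subunit gene Atp5c1 (-0.42). The general form Cox8a (0.11) and the ATP synthase beta subunit Atp5b (-0.10) did not pass. The mean of the complex I genes was 1.87, 1.59, 1.68 and 1.60 on wild-type TAB replicates 1 to 4 and 1.30, 1.56, 1.29 and 1.37 on CHIP-/- TAB replicates 1 to 4. The count of 31 was 18 without wild-type TAB replicate 1 and 19 without CHIP-/- TAB replicate 3. With median centring 6 of the complex I genes and 6 of the complex III to V genes passed, at median differences of -0.33 and -0.37.

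**Figure D3:**
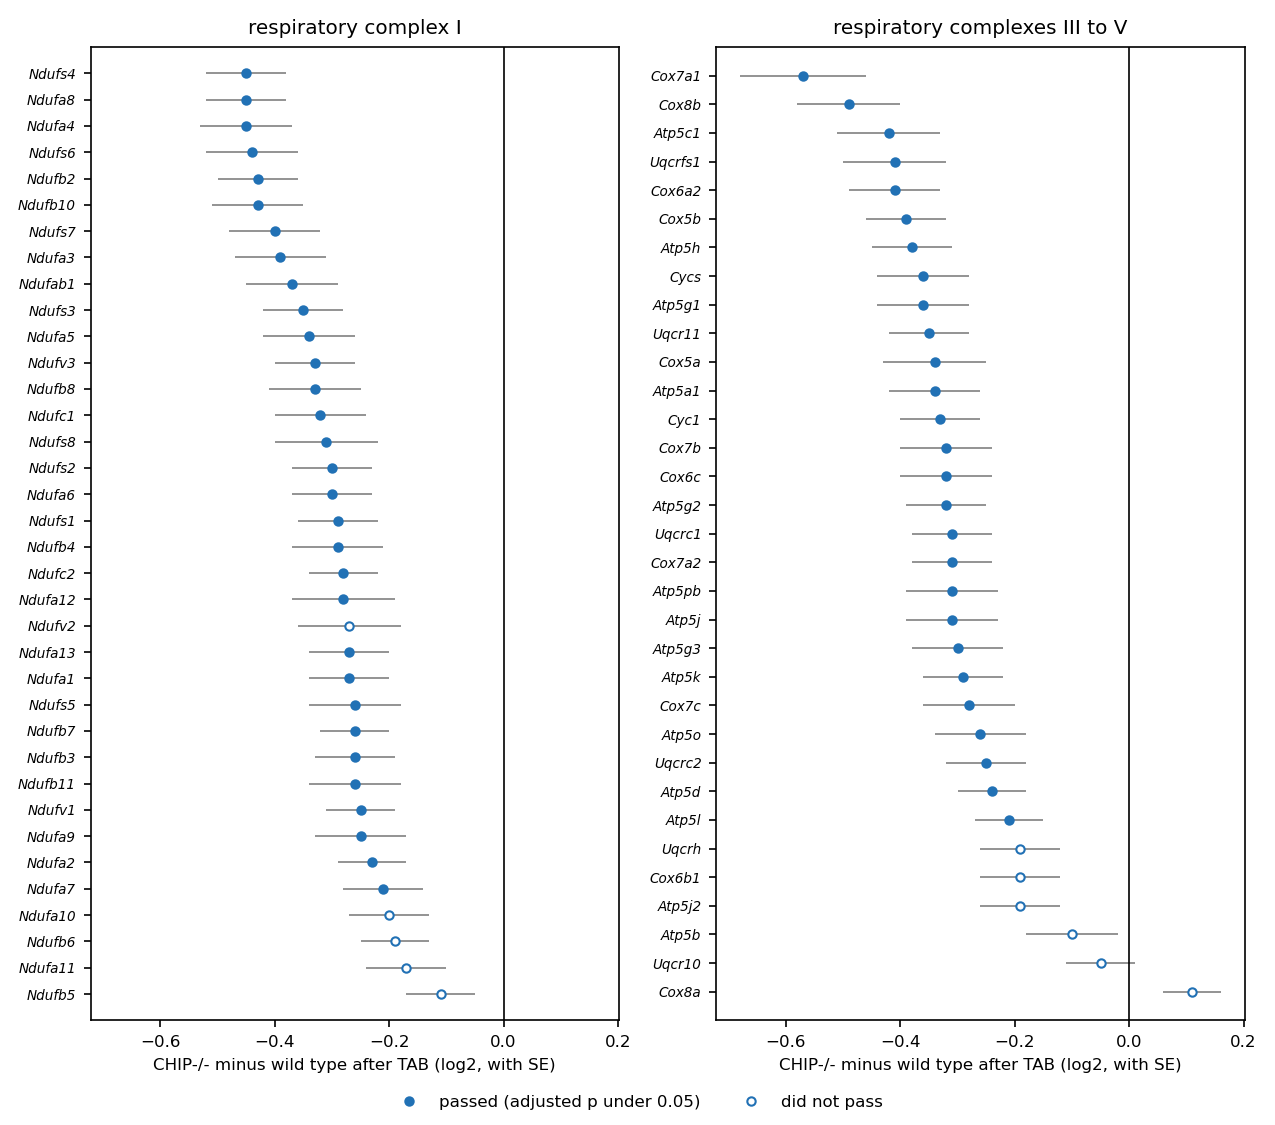
Difference between CHIP-/- and wild-type ventricle after TAB (log2, with its SE) for each measured gene of complex I and of complexes III to V, filled where the adjusted p was under 0.05. All 36 genes of the complex I list lie left of 0, between -0.45 and -0.11, and Cox8a lies right of 0 at 0.11.

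Other mitochondrial lists followed with smaller counts. The tricarboxylic acid cycle and pyruvate dehydrogenase list had 14 of 25 members lower (median -0.27), including Pdhb (-0.40) and Fh1 (-0.39). That count was 9 without wild-type TAB replicate 1, wild-type TAB replicate 3 or CHIP-/- TAB replicate 1, 8 without CHIP-/- TAB replicate 3 and 0 with median centring (median -0.27). Branched-chain amino acid and ketone use had 11 of 23 lower, including Acat1 (1.38-fold), and 7 without wild-type TAB replicate 1, CHIP-/- TAB replicate 1 or CHIP-/- TAB replicate 3, and 2 with median centring. Mitochondrial ribosomal protein genes had 19 of 55 lower (median -0.19), which was 6 without wild-type TAB replicate 1, 10 without wild-type TAB replicate 3, 7 without CHIP-/- TAB replicate 1, 9 without CHIP-/- TAB replicate 3 and 0 with median centring (median -0.16). No member of these 3 lists was higher, nor at an unadjusted p under 0.05 (limma).

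Glucose genes changed in both directions. The insulin-regulated transporter Slc2a4 (GLUT4) was 1.43-fold lower, and the glycolytic enzymes Eno3 (-0.32), Pfkm (-0.27) and Pgam2 (-0.33) were lower too. The transporter Slc2a1 (GLUT1) was 1.28-fold higher, with Hk1 (0.32), Pgk1 (0.41) and Ldha (0.26). Slc2a1 measured -0.40, -0.41, -0.43 and -0.22 on wild-type TAB replicates 1 to 4 and 0.00, -0.14, -0.02 and 0.13 on CHIP-/- TAB replicates 1 to 4. In all 7 of 25 members were higher and 6 lower. With median centring 0 were higher and 1 lower, and the adjusted p-values of Slc2a1, Pgk1 and Pgam2 were 0.097, 0.15 and 0.13.

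AMPK subunit genes, which encode the kinase that responds to low ATP, differed in 1 of 6 cases. Prkab2, the beta subunit most abundant in muscle, measured 0.28, 0.51, 0.29 and 0.43 on wild-type TAB replicates 1 to 4 and 1.02, 0.71, 1.04 and 0.83 on CHIP-/- TAB replicates 1 to 4 (1.44-fold higher, adjusted p = 0.00046, limma). The catalytic subunits Prkaa1 (0.08, SE 0.08) and Prkaa2 (-0.19, SE 0.09), the other beta subunit Prkab1 (0.10) and the gamma subunit Prkag1 (-0.05) did not pass. Prkag2 was not well above background on the CHIP-/- TAB arrays. Over the AMPK pathway list, 2 of 22 members were higher and 4 lower, the latter including Acacb, and with median centring 1 was higher and 1 lower.

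Few genes of protein quality control, the process CHIP serves, passed. Over all features 5.25% were higher and 6.29% lower. Of 30 genes for CHIP and its chaperone partners, 4 were lower, and these were Stub1 itself, Fkbp4 (-0.45), Bag3 (-0.25) and Cdc37 (-0.17). Without wild-type TAB replicate 1, CHIP-/- TAB replicate 1, CHIP-/- TAB replicate 3 or CHIP-/- TAB replicate 4 that count was 2, since Bag3 (adjusted p = 0.13, 0.098, 0.089 and 0.07) and Cdc37 (0.069, 0.11, 0.1 and 0.084) no longer passed. Hspa8 (Hsc70, -0.07, SE 0.10), Hsp90aa1 (0.14, SE 0.13) and Hsf1, the heat shock regulator (-0.02, SE 0.07), did not pass. Hspa1a, inducible Hsp70, varied too widely to resolve a difference, with values from -1.28 to 0.12 in wild-type TAB and from -1.40 to 0.56 in CHIP-/- TAB, and its near-identical copy Hspa1b may share its probe. Of 35 proteasome genes 3 were lower, of 26 muscle ubiquitin ligase genes 2 were lower, and the atrophy ligases Trim63 (-0.17, adjusted p = 0.058) and Fbxo32 (0.21, adjusted p = 0.23) did not pass by limma. Of 26 endoplasmic reticulum stress genes 1 was higher and 1 lower, the latter being Herpud1 (-0.66). Differences, passing or not, were negative for 21 of 30 chaperone list genes, 27 of 35 proteasome genes and 19 of 26 ligase genes. Of the endoplasmic reticulum stress genes, 17 had positive and 9 negative differences. With median centring the lower members numbered 1 for CHIP and its partners, 0 for the proteasome, 1 for ubiquitin ligases and 1 for endoplasmic reticulum stress.

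The ribosome lists gave a paralogue pair. Rpl3l, the muscle form of ribosomal protein L3, measured 2.54, 2.25, 2.38 and 2.02 on wild-type TAB replicates 1 to 4 and 1.06, 1.87, 1.10 and 1.25 on CHIP-/- TAB replicates 1 to 4 (1.97-fold lower, adjusted p = 3.3e-05, limma). Rpl3, the general form, was 1.21-fold higher (adjusted p = 0.0045), a call that median centring ended (0.54). Of 70 cytosolic ribosomal genes 3 were higher and 2 lower, with a median difference of 0.04, and with median centring 0 were higher and 1 lower. Of 30 cell cycle genes 0 passed by limma, and 1 was lower at an unadjusted p under 0.05.

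**Figure D4:**
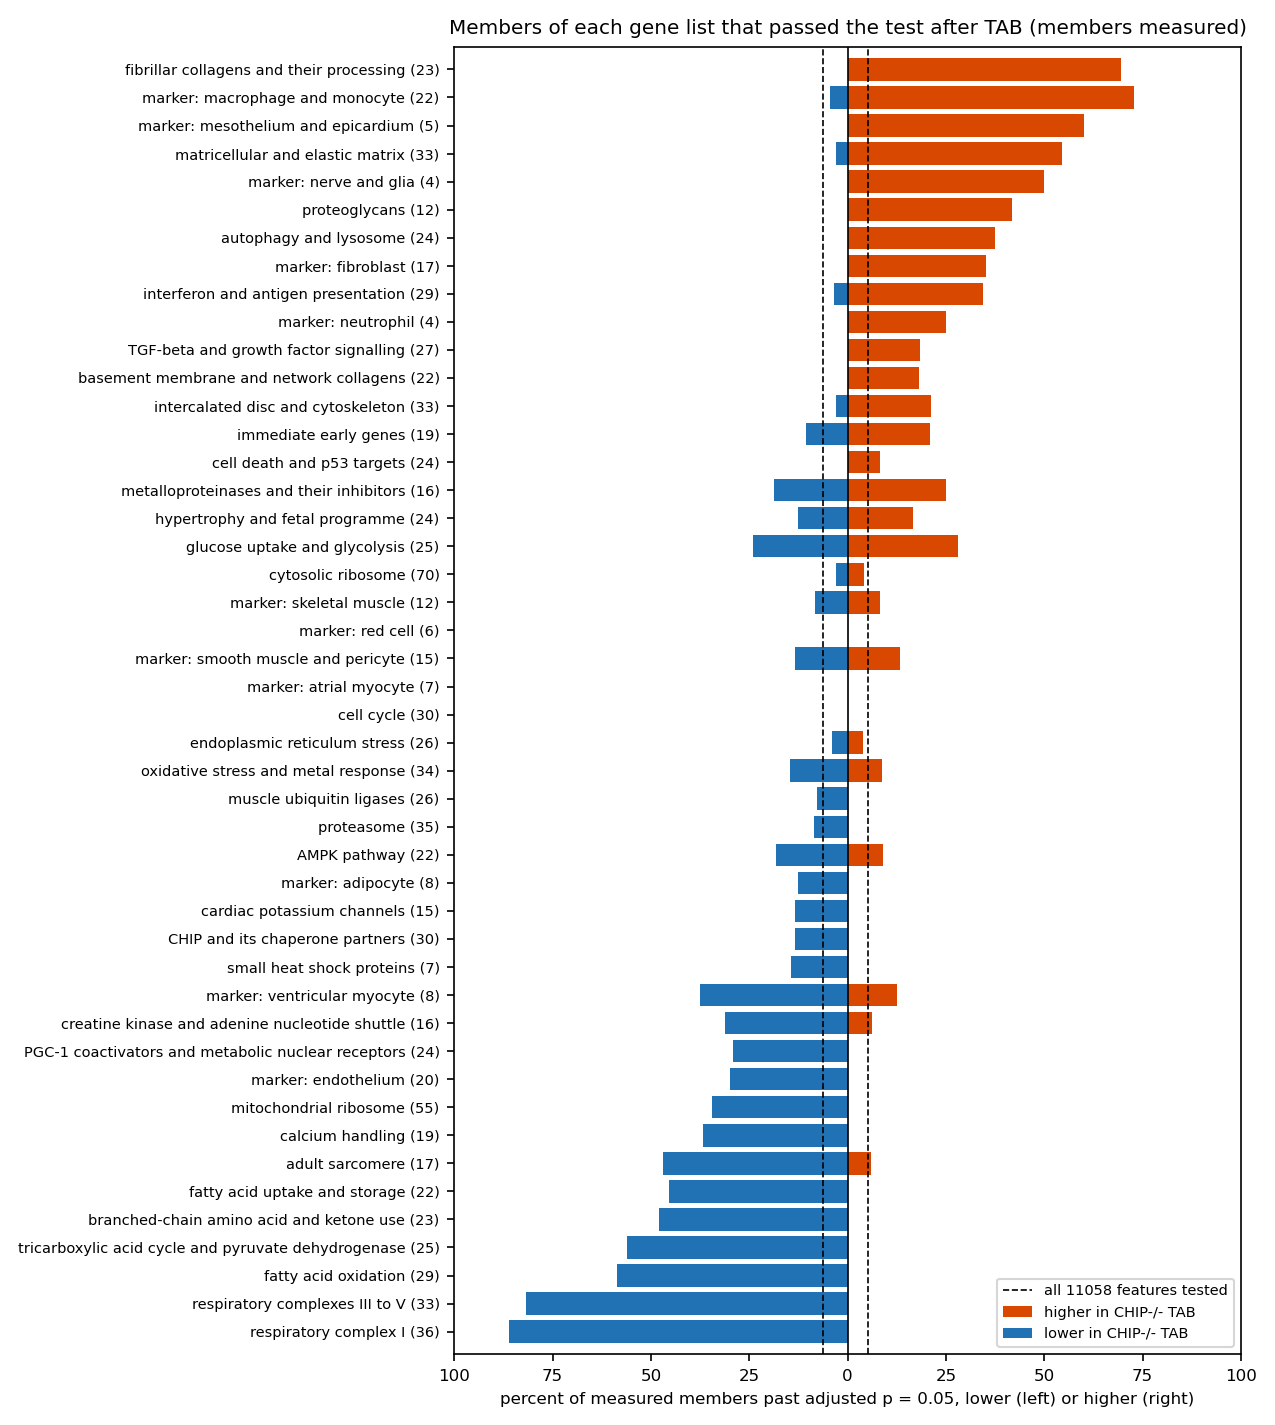
Share of the measured members of each gene list that passed after TAB, lower in CHIP-/- to the left and higher to the right, with dashed lines at the shares over all 11058 features (6.29% lower, 5.25% higher). Respiratory complex I (31 of 36 lower) and macrophage markers (16 of 22 higher) lie near the opposite ends.

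After sham surgery few features differed between the genotypes: 4 of 11058 passed (0.0362%), against 885 at an unadjusted p under 0.05. These were Stub1 (-1.70), Ifi27 (0.67), Ly6a (0.41) and Nppb (-0.98). The sham difference contrasts none of the 8 TAB arrays. The median difference after sham was -0.22 for fibrillar collagen genes, -0.11 for matricellular genes, 0.04 for fatty acid oxidation, 0.05 for complex I and 0.05 for complexes III to V. The atrial marker mean ranged from -0.79 to 0.71 over the wild-type sham arrays and from -0.96 to 0.21 over the CHIP-/- sham arrays, wider than after TAB (-0.41 to 0.08 and -0.20 to 0.05), and 17 features passed after sham without the arrays with high Myl7, an atrial light chain. Y-linked Ddx3y and Eif2s3y were each well above background on 1 wild-type and 2 CHIP-/- sham arrays and on no TAB array. Xist, the RNA of the silenced X of females, was so on 3 wild-type and 2 CHIP-/- sham arrays and on all TAB arrays. By these genes the TAB hearts read as female and each sham group as mixed. The part of sex in the sham and interaction differences was not tested.

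The genotype difference itself changed with surgery for 601 features (5.43%, interaction of genotype and surgery, limma), 313 (2.83%) with a higher and 288 (2.60%) with a lower difference after TAB. Of the 1275 features that passed after TAB, 526 (41.3%) also passed the interaction. Postn changed from -0.62 after sham to 1.73 after TAB (interaction 2.36, SE 0.47, adjusted p = 0.0056), Col3a1 from -0.70 to 1.37 (2.07, adjusted p = 0.00074) and Fndc1, a fibronectin domain protein, from -0.73 to 1.05 (1.78, adjusted p = 0.00014). Pdk4 changed from 0.72 to -1.63 (-2.35, SE 0.46, adjusted p = 0.0048), Timp4 from 0.49 to -1.15 (-1.64, adjusted p = 1.2e-05), Tacc2 from 0.30 to -0.98 and Ift81, of the cilium, from 0.48 to -0.60. Each of these 7 genes had differences of opposite sign after the 2 operations, although none of them passed after sham on its own. They were named for the size of their interaction, which favours opposite signs, and 506 of the 601 features (84.2%) had such signs. Ppargc1a differed by -0.06 after sham and -0.94 after TAB (-0.88, adjusted p = 0.00074), and Prkab2 by -0.11 and 0.53 (0.63, adjusted p = 0.0056, and 0.098 with median centring). For Nppb the sham difference of -0.98 was -0.07 after TAB (0.90, adjusted p = 0.024, and between 0.055 and 0.066 without wild-type sham replicate 2 or 4, CHIP-/- sham replicate 3, wild-type TAB replicate 3 or CHIP-/- TAB replicate 3), and for Nmrk2 the values were -0.74 and 0.78 (1.52, adjusted p = 0.018). The count of 601 was 344 without wild-type sham replicate 4, 349 without CHIP-/- TAB replicate 3, 390 without CHIP-/- sham replicate 2 and 394 without wild-type TAB replicate 1. It was 388 with no filter on dim probes, 389 with no intensity trend and 181 with median centring.

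**Figure D5:**
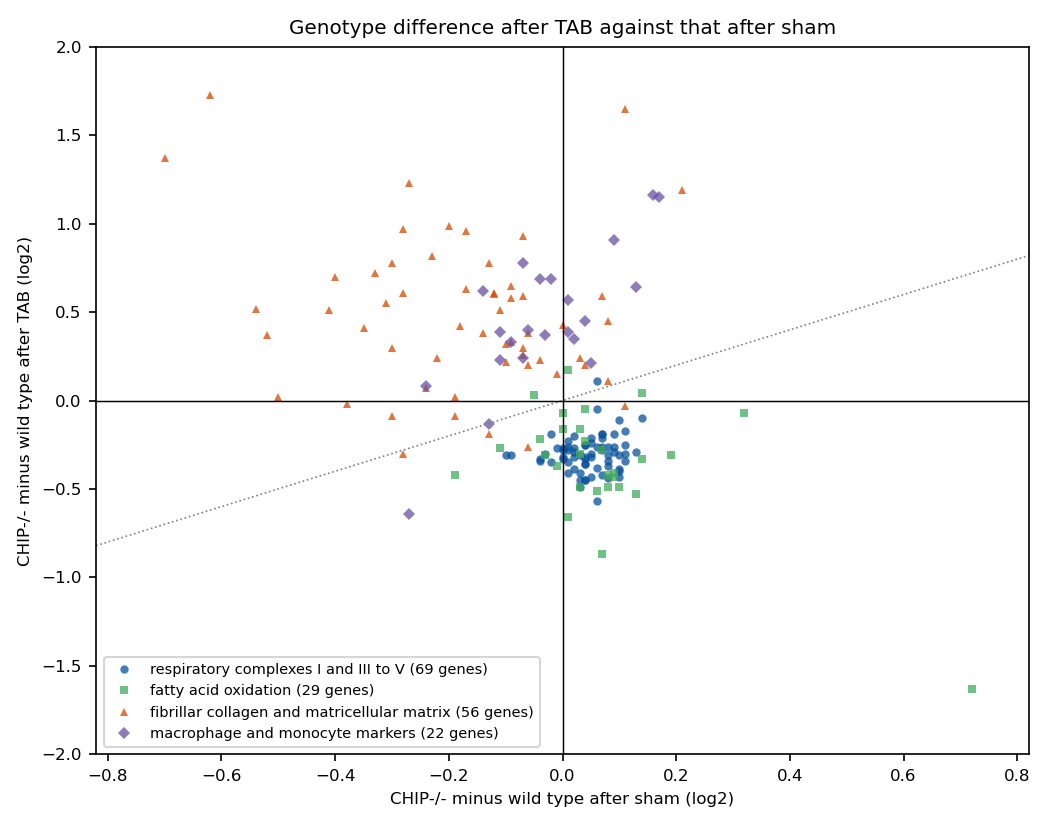
Difference between CHIP-/- and wild-type ventricle after TAB (vertical axis, log2) against that after sham (horizontal axis, log2) for the members of 4 sets of gene lists, with a dotted line where both are equal. Complex I genes lie below 0 after TAB (median -0.29) and near 0 after sham (median 0.05), and Postn lies at 1.73 after TAB and -0.62 after sham.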

How the data were processed

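Total RNA from 16 ventricles (4 groups of 4, from the labels) was extracted with Trizol, and 500 ng was labelled and hybridised with the reference to Agilent arrays, per the labels' protocols. The authors deposited scanner files whose intensity values were extracted with Agilent Feature Extraction 9.1.3.1, per the file headers, on array pattern 014868 with 45018 spots. The deposited files also hold log10 ratios of processed signals, per the file headers, and the deposited values for the whole series match these as log2 ratios. The files of the CHIP-/- TAB arrays were deposited with 3 significant digits.

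Mean signals were background-corrected (normexp, offset 50), normalised within arrays (loess, controls at weight 0) and cleared of outlier spots in limma 3.58.1 under R 4.3.3. Spots of a probe were averaged. Of 41174 probes, 22951 were named by accession, 6659 by symbol and 3109 by synonym through RefSeq, and 8455 kept the file's name. Probes were kept (14908) if the heart signal was well above background on 4 or more arrays and a value stood on 15 or more, and the brightest stood for each gene (11058 features). A model of 4 group means on all 16 arrays was fitted with an intensity trend, and 3 contrasts were taken (adjusted p under 0.05, Benjamini-Hochberg, two-sided). A lower limit on a fold is the mean of the brighter group over the dim group's bound, per channel after loess and Aquantile, and is open to dye bias. The fit was tested on simulated data. The number of arrays limits the precision.

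Genes named are the 15 largest rises and falls among genes whose groups do not overlap, the largest called members of each list (47 lists), the 6 largest interactions in each direction and genes fixed by name; a few others were named after their values were seen, and 2 genes that the rule picks are not reported here. Members, lists and alternatives were chosen with earlier results of these data known. Replicate numbers did not pair the arrays (correlation of same-numbered TAB arrays -0.19, -0.16, 0.00391 and -0.0433).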

Additional observations from a re-analysis of the deposited data

Results flagged for a closer look

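Single arrays lay far from the other 3 of their group in 16 of 398 groups of 4 that were checked (by the gap to the nearest array as a share of the range, Dixon's test at 95%), and chance alone gives about 1 in 20. On CHIP-/- TAB replicate 1, Clu was low (4.90, the others 5.42 to 5.48), Cab39 low (0.35) and Phlda1 high (1.17). On CHIP-/- TAB replicate 2, Cdc37 was high (0.37) and Cacna1c low (1.11). On CHIP-/- TAB replicate 3, Sult1a1 was low (-1.26, the others -0.42 to -0.30), as were Prkag1 (-0.25) and Mt1 (0.02), while Tgfb3 was high (0.64). On CHIP-/- TAB replicate 4 the mean of the mesothelial and epicardial markers was low (-0.88). On wild-type TAB replicate 1, Hspb6 was high (2.43), and Junb (0.04) and the mean of the endothelial markers (0.80) were low. On wild-type TAB replicate 3 the mean of the red cell markers was low (-2.03), and on replicate 4 Tacc2 (1.72) and Slc2a1 (-0.22) were high.

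The genotype difference after TAB differed from that after sham, by the interaction term in limma (adjusted p under 0.05), for 22 genes named by that test or fixed by name. The change was positive for Serpinb1a (2.57), Postn (2.36), Col3a1 (2.07), Fndc1 (1.78), Clu (1.55), Phlda1 (1.54), Nmrk2 (1.52), Timp1 (1.31), Col1a1 (1.25), Nppa (1.14), Nppb (0.90), Hsp90aa1 (0.67) and Prkab2 (0.63). It was negative for Pdk4 (-2.35), Timp4 (-1.64), Tacc2 (-1.29), Myot (-1.17), Yipf7 (-1.08), Ift81 (-1.08), Ppargc1a (-0.88), Cpt1b (-0.52) and Acadm (-0.50). Nppa was saturated on 3 CHIP-/- TAB arrays, and Hsp90aa1, Nmrk2 and Nppa did not differ past the threshold after either operation on its own.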

How the results depend on the processing

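Of 161 chosen genes that passed after TAB, 105 passed under all 23 alternative settings and 56 failed under at least 1. The count after TAB ran from 807 to 1384 over the fits without one replicate and was 439 with median centring. From the 8 TAB arrays alone it was 888. The interaction count ran from 344 to 790 without one replicate and was 181 with median centring, 388 with no filter on dim probes and 389 with no intensity trend. The sham count ran from 2 to 15 without one replicate. It was 2 with processed signals and with the deposited series table, 22 with median centring, 34 with array quality weights and 17 without the sham arrays with high Myl7. With the replicate block the counts were 1174, 508 and 5, in the order TAB, interaction and sham. Averaging a gene's probes turned Tnnt2 after TAB to -0.09 and the Myl1 interaction to -0.03. The causes were not tested. Signal limits genes near background, such as Plac8, Sfrp2 and Ms4a7, whose differences grew with processed signals.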

Other observations

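Cytoskeletal and attachment genes were higher in CHIP-/- TAB ventricle in 7 of 33 cases and lower in 1. Itgb1, the main integrin beta chain, averaged 1.39 ± 0.24 in wild-type TAB and 2.03 ± 0.15 in CHIP-/- TAB (SD, n = 4 each), a 1.55-fold difference without overlap, while the tubulin gene Tuba4a was 1.65-fold lower. The 2 further Itgb1 probes differed by 0.79 and 0.33 (adjusted p = 0.00042 and 0.067, limma). The 7 became 3 without CHIP-/- TAB replicate 3, 4 without CHIP-/- TAB replicate 4 and 3 with median centring. Of antioxidant and metal response genes 3 of 34 were higher and 5 lower, where 5.25% and 6.29% of all features were. The higher ones included Gpx3, the secreted glutathione peroxidase (1.64-fold). Gstk1 and the metallothionein Mt1 (1.45-fold) were lower, although a second Mt1 probe differed by -0.26 (adjusted p = 0.12, limma). The 5 lower members became 3 without CHIP-/- TAB replicate 3, and with median centring 1 member was higher and 2 lower.

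Immediate early genes split, with 4 of 19 higher and 2 lower. Phlda1 was 1.71-fold, Junb 1.54-fold and Ier3 1.46-fold higher, and Dusp1, a phosphatase that switches off stress kinases, was 1.43-fold lower. Dusp1 was even within groups (1.51 ± 0.14 and 1.00 ± 0.04, SD, n = 4 each). Among markers of sparser cells, S100a9 of neutrophils was 1.59-fold higher and Uchl1 of nerve 1.48-fold higher.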
